A study of Homo sapiens with 34 samples.

Results

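YAP1 and WWTR1 (which encodes TAZ), the TEAD genes TEAD1, TEAD2, TEAD3 and TEAD4, and the pathway genes CCN1, CCN2, AMOTL2 and AJUBA were examined for RBPJ and SOX2 peaks in triple-negative breast cancer cells. These 10 of 19970 protein-coding genes were chosen by name. Their loci, taken as the gene body and everything within 50 kb of the transcription start site (TSS), held 403 of the 290228 peak summits of 8 peak lists on chromosomes 1 to 22 and X. Summits of all lists joined in chains with steps shorter than 500 bp gave 180 sites.

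ChIP-seq, which sequences the DNA that an antibody pulls down with a protein, was used to map RBPJ, the DNA-binding effector of NOTCH, and SOX2, a stem cell transcription factor. The cells were MB157, an established triple-negative line with a NOTCH1 gene that lacks the extracellular part and is constitutively active. MB157R cells are MB157 cells that became resistant to a γ-secretase inhibitor (GSI), which blocks NOTCH cleavage, during 25 weeks at 1 µM. Of the 34 libraries, 22 were immunoprecipitations in 8 groups and 12 were inputs. Each group had 3 libraries, except the HA control with 1.

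MB157R iN1-ICD cells carried an inducible NOTCH1 without its extracellular domain and gave an RBPJ and a SOX2 list. MB157R iEV cells carried the empty vector and gave the same pair of lists. MB157 iSOX2 cells carried inducible HA-tagged SOX2 and gave an RBPJ list and an HA list (HA-SOX2), and MB157 iEV cells with the empty vector gave an RBPJ list and an HA control list. All cells had a vector with a doxycycline-inducible promoter, introduced by lentivirus, and induction was with 1 µg/ml doxycycline for 72 h. MB157R is 1 resistant culture of 1 line, so features of resistance and of that culture cannot be told apart, and whether GSI was present at fixation is not given in the sources used here. SOX2 itself was precipitated in MB157R cells and its tag in MB157 cells, so line and antibody cannot be told apart in that comparison. The authors pooled the libraries of a group before peak calling. Each condition was therefore 1 list without replicate spread, values are set side by side without a test, and intervals cover counting error only.

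YAP and TAZ are coactivators held in the cytoplasm by the Hippo kinases MST and LATS. When Hippo signalling is low they enter the nucleus and bind TEAD proteins, which contact DNA, often at enhancers shared with AP-1, and activate growth and matrix genes. In breast epithelium YAP and TAZ are known for their activity in mesenchymal and stem-like tumour cells.

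The sequences that carried the results are shown first. Within 100 bp of each summit, 4 motifs were searched on both strands: GGAATG for TEAD, GTGGGAA for RBPJ, ACAANG for SOX factors and TGANTCA for AP-1. The RBPJ and TEAD motifs can overlap by the letters GGAA. The CCN2 promoter, from RefSeq on GRCh38.p14, is shown because RBPJ and both kinds of SOX2 list had summits in it, with the TEAD motifs in capitals. It lies at chr6:131951323-131951622 on the minus strand.
CCN2 promoter: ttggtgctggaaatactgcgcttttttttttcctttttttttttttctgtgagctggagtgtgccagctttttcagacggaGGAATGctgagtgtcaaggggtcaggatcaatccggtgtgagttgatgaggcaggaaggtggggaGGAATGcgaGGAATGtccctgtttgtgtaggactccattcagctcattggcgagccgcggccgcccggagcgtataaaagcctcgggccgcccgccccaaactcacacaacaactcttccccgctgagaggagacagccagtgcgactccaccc
These 300 bases reach from 250 before to 50 after the TSS, and the TEAD motifs began 169, 104 and 95 bases upstream of it. Of 15315 RefSeq promoters, 1 for each gene, 11.7% had at least 1 TEAD motif and 16 (0.104%) had 3 or more. RefSeq promoters were matched for 7 of the 10 genes, and CCN1, TEAD1 and TEAD4 had no entry. Among the matched genes, a TEAD motif was also found 162 bases upstream of the YAP1 start, 69 bases upstream of a second AMOTL2 start and 59 bases upstream of a second AJUBA start. The other AMOTL2 and AJUBA promoters had none, nor had those of WWTR1, TEAD2 and TEAD3. Some of these genes were searched at more than 1 promoter, unlike the genes behind the 11.7%.

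Both AMOTL2 sites below had a TEAD and an RBPJ motif, capitalised, and the upstream one was called in all 4 RBPJ lists with a fold of at least 9.98. The downstream one held the highest RBPJ fold of all 10 loci. Both are on the minus strand of hg38, at chr3:134381876-134382076 and at chr3:134333467-134333667.
AMOTL2 upstream site: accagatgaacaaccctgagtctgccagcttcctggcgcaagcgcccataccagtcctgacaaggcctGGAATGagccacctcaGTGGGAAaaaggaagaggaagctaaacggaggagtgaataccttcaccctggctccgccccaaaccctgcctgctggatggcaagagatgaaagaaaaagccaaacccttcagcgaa
AMOTL2 downstream site: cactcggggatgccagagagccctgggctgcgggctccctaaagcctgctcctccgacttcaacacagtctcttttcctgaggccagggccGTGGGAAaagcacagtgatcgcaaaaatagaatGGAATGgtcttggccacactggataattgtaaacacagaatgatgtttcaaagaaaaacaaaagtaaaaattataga
The next sequence is the TEAD1 intron site with the highest SOX2 fold, at chr11:12843025-12843225 on the plus strand. Its capitals mark the SOX motif, which reads CATTGT here because it lies on the opposite strand.
TEAD1 intron site: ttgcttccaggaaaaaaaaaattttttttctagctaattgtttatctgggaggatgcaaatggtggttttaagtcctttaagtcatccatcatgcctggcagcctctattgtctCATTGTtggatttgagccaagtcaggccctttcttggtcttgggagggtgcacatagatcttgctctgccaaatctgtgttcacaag
A pair of sites in WWTR1 intron 2 completes the set, both on the minus strand. The site at chr3:149576257-149576457 was called in 7 lists, RBPJ and SOX2 alike, and its capitals mark an AP-1 motif and, after it, the RBPJ motif. The other, at chr3:149593489-149593689, had the highest HA-SOX2 fold of the 10 loci, with the SOX motif in capitals.
WWTR1 RBPJ and SOX2 site: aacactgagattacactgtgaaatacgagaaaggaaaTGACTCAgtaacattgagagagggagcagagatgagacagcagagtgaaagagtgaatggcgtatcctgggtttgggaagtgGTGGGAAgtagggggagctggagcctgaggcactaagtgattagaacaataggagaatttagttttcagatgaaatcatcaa
WWTR1 HA-SOX2 site: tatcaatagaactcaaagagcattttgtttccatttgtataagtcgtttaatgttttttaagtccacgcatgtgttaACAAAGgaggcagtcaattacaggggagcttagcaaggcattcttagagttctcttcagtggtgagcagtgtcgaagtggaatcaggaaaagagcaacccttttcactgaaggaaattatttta
The 5 site sequences are 201 bases long and centred on a summit. A motif match is a description of the letters and not evidence of binding.

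RBPJ peaks lay in all 10 loci in every RBPJ condition. There were 70 summits in MB157R iN1-ICD cells, 68 in MB157R iEV cells, 56 in MB157 iSOX2 cells and 40 in MB157 iEV cells. SOX2 had 2 summits in MB157R iN1-ICD cells and 55 in MB157R iEV cells, and HA-SOX2 had 112 in MB157 iSOX2 cells. The HA control had none. The plot of summits per gene and list shows that TEAD4 was the only gene without a SOX2 summit in MB157R cells, and that WWTR1 and TEAD1, whose loci are the longest at 269 and 320 kb, held the most SOX2 summits.

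**Figure D1:**
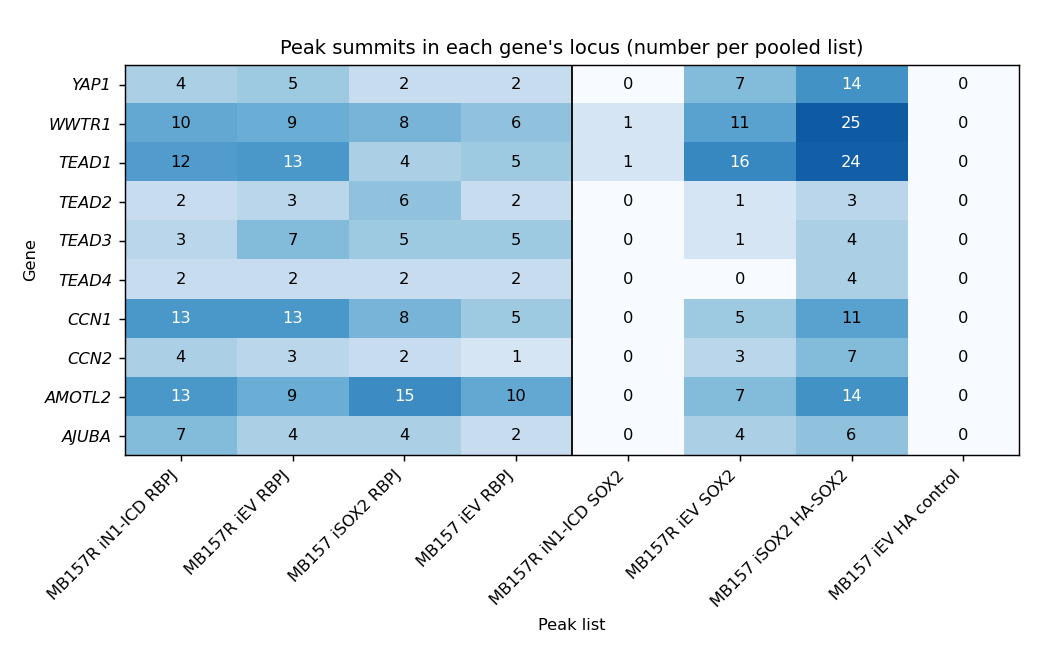
Number of peak summits in the locus of each of the 10 genes (rows) in each of the 8 pooled peak lists (columns), with darker cells for higher numbers. RBPJ summits are found in every row, and the MB157R iN1-ICD SOX2 column holds 1 summit at WWTR1 and 1 at TEAD1.

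The lists differed in length, with 37297, 46601, 34521 and 25243 RBPJ peaks in MB157R iN1-ICD, MB157R iEV, MB157 iSOX2 and MB157 iEV cells. SOX2 had 323 peaks in MB157R iN1-ICD and 37963 in MB157R iEV cells, HA-SOX2 had 108203 and the HA control 77. Per 100 kb, the 10 loci held 4.69, 4.55, 3.75 and 2.68 RBPJ summits in these 4 conditions, beside 1.77, 2.21, 1.70 and 1.24 over the loci of all protein-coding genes. The SOX2 density was 0.134 in MB157R iN1-ICD and 3.68 in MB157R iEV cells, beside 0.00999 and 1.60 over all gene loci, and that of HA-SOX2 was 7.50 beside 4.39. As a check of the labels, the RBPJ target genes HES1 and NRARP had RBPJ summits within 15 kb in all 4 RBPJ lists. They had none in the MB157R iN1-ICD SOX2 and HA control lists, which hold only 323 and 77 peaks. SOX2 in MB157R iEV cells had 7 summits at HES1 and 4 at NRARP, and HA-SOX2 had 4 and 2. The presence of a summit there thus does not tell RBPJ labels from SOX2 labels.

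Depth limits these counts. The fold of a peak is the authors' ratio of fragments at the summit, plus 1, to the background expected from the input, plus 1, and with the p-value it gave back the fragments themselves. The background away from any local excess was 1.60 to 2.04 fragments in the RBPJ lists, 1.74 to 2.24 in the SOX2 and HA-SOX2 lists, and 0.524 in the HA control. A typical summit at the 10 loci rested on a median of 17.0 to 26.0 fragments, so that a site with no call in a list cannot be taken as unbound.

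At their promoters, meaning a summit within 1 kb of the TSS, RBPJ was called at 8 of the 10 genes in MB157R iN1-ICD cells, beside 43.0% of all protein-coding genes. It was called at 9 genes in MB157R iEV cells, beside 56.1%. In MB157 iSOX2 cells 9 genes had a promoter call, beside 50.4%, and in MB157 iEV cells 8, beside 38.0%. All but TEAD1, TEAD3 and AMOTL2 had an RBPJ promoter summit in all 4 conditions. TEAD1 lacked one in MB157R iN1-ICD and MB157 iEV cells, TEAD3 had one only in MB157R iEV cells, and the AMOTL2 summit of MB157R iEV cells lay just outside, at 1.26 kb.

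SOX2 was called at no promoter of the 10 genes in MB157R iN1-ICD cells, beside 0.0751% of all genes. In MB157R iEV cells it was called at 5 (YAP1, TEAD2, CCN1, CCN2 and AJUBA), beside 21.8%. HA-SOX2 was called at 5 in MB157 iSOX2 cells (WWTR1, TEAD2, CCN1, CCN2 and AJUBA), beside 34.0%, and the HA control at none, beside 0.0801%. TEAD2, CCN1, CCN2 and AJUBA thus had SOX2 at the promoter in both settings, although at TEAD2 the SOX2 and HA-SOX2 summits lay 884 bp apart. The SOX2 counts depend on the start used. With the start of any annotated transcript they were 1 in MB157R iN1-ICD cells, 8 in MB157R iEV cells and 8 for HA-SOX2. The shares of all genes given above are for the TSS used there and do not apply to these counts.

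**Figure D2:**
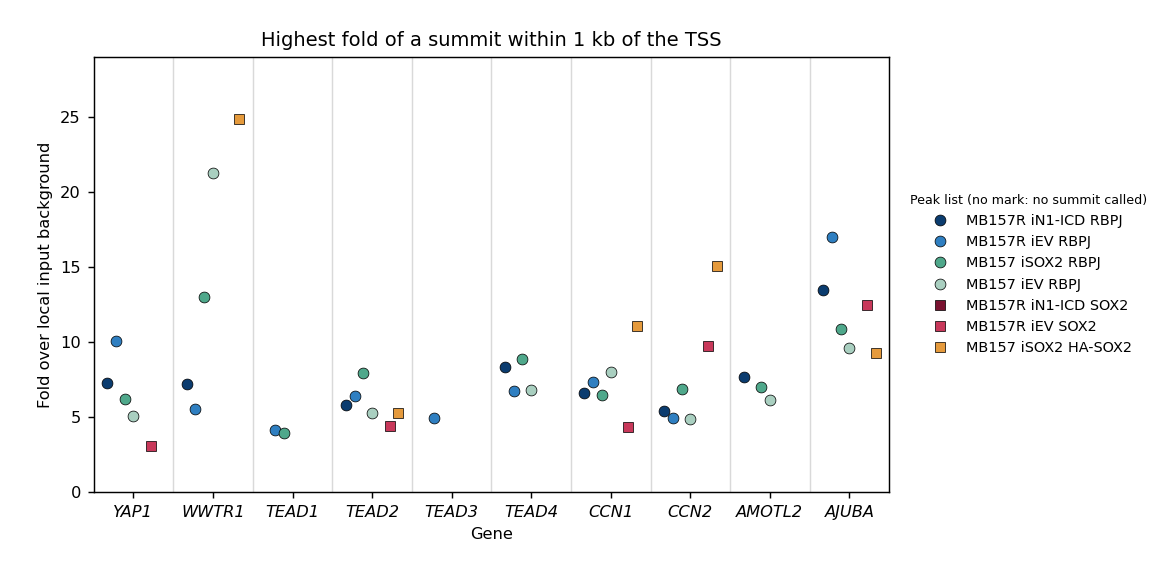
Highest fold over the local input background of a summit within 1 kb of the TSS of each gene, with RBPJ lists as circles and SOX2 or HA-SOX2 lists as squares, and no mark where nothing was called. The highest values were 24.9 for HA-SOX2 at WWTR1, 21.3 for RBPJ at WWTR1 in MB157 iEV cells and 17.0 for RBPJ at AJUBA in MB157R iEV cells.

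YAP1 (chr11:102110447-102233424, plus strand) encodes the coactivator YAP. At its promoter the RBPJ fold was 7.29 in MB157R iN1-ICD, 10.1 in MB157R iEV, 6.19 in MB157 iSOX2 and 5.07 in MB157 iEV cells, on 37, 58, 29 and 14 fragments. A second site 1.17 kb into the gene, in intron 1, had RBPJ folds of 8.15, 13.3, 6.46 and 9.60 in the same conditions. In MB157R iEV cells SOX2 was called at 3.06 at the promoter, 327 bp from the RBPJ summit. At the intronic site it was called at 6.20, but 579 bp from the RBPJ summit. HA-SOX2 was called at the intronic site only (14.7). The YAP1 start was thus called for RBPJ in every condition and for SOX2 in both settings within 2 kb.

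The highest SOX2 fold of the YAP1 locus in MB157R iEV cells, 11.0 on 81 fragments, lay 116 kb downstream of the TSS in intron 7, and no other list had a summit there. The protein-coding TSS nearest to it was that of BIRC3. The highest HA-SOX2 fold, 33.5 on 114 fragments (95% interval 94.0 to 137), lay 38.2 kb upstream within the neighbouring gene CFAP300, also without a call in another list. No YAP1 site was RBPJ only. Of the 18 sites 5 (27.8%) had both factors and 13 (72.2%) had SOX2 only, 11 of them (61.1%) in the HA-SOX2 list alone. Over all 170566 sites of the genome, chained in the same way, 22.5% had both factors, 22.6% had RBPJ only and 54.9% had SOX2 only, with 47.4% in the HA-SOX2 list alone. The input background differed between the lines here. The background at the YAP1 summits was 2.65 and 2.80 times the genome background in the RBPJ lists of MB157R iN1-ICD and MB157R iEV cells and 3.30 times in the SOX2 list of MB157R iEV cells, against 1.57, 1.11 and 1.07 times in the RBPJ lists of MB157 iSOX2 and MB157 iEV cells and in the HA-SOX2 list. Its part in the number of YAP1 calls was not tested.

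WWTR1 (chr3:149517235-149736714, minus strand) encodes TAZ, the paralogue of YAP, and has its annotated start 78.7 kb upstream of that of the MANE Select transcript, the reference transcript. At the upstream start the RBPJ fold was 7.23 in MB157R iN1-ICD and 5.54 in MB157R iEV cells, against 13.0 in MB157 iSOX2 and 21.3 in MB157 iEV cells. These folds rested on 28 (95% interval 18.6 to 40.5), 24 (15.4 to 35.7), 51 (38.0 to 67.1) and 62 (47.5 to 79.5) fragments. Both MB157 folds were thus above both MB157R folds at this start. The fragment interval of MB157 iEV cells lay above those of both MB157R lists, and that of MB157 iSOX2 cells overlapped the MB157R iN1-ICD one. HA-SOX2 reached a fold of 24.9 there on 116 fragments (95.9 to 139), with its summit 348 bp from the RBPJ summit of MB157 iSOX2 cells, while SOX2 had no call in either MB157R list.

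The start of the MANE Select transcript was a site of 6 lists. RBPJ folds there were 4.93 in MB157R iN1-ICD, 8.40 in MB157R iEV, 9.63 in MB157 iSOX2 and 6.77 in MB157 iEV cells, with SOX2 at 6.54 in MB157R iEV cells and HA-SOX2 at 7.28. Both of these starts were therefore called for RBPJ in every condition, and of them SOX2 in MB157R iEV cells was called at the inner one alone. RefSeq gives a further WWTR1 promoter between them, at chr3:149703224-149703523, and no list had a summit in it.

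Further in, the lines stood in the other order. At the intron 2 site printed above with its RBPJ motif, 160 kb from the TSS, the RBPJ fold was 11.8 on 35 fragments in MB157R iN1-ICD and 11.5 on 40 in MB157R iEV cells, against 3.25 on 12 in MB157 iSOX2 and 4.92 on 13 in MB157 iEV cells. SOX2 had a fold of 5.82 on 17 fragments (9.90 to 27.2) in MB157R iN1-ICD cells and 23.8 on 100 fragments (81.4 to 122) in MB157R iEV cells, and HA-SOX2 had 7.05. The SOX2 and RBPJ summits of MB157R iEV cells were 62 bp apart, and the weak RBPJ summit of MB157 iSOX2 cells lay 460 bp from that of MB157R iEV cells. This was 1 of only 2 sites of the 10 loci that kept a SOX2 call in MB157R iN1-ICD cells.

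Nearby, 156 kb from the TSS, SOX2 had its highest WWTR1 fold in MB157R iEV cells, 29.5 on 98 fragments, with RBPJ at 7.68 in MB157R iN1-ICD and 10.7 in MB157R iEV cells, no RBPJ call in MB157 cells, and HA-SOX2 at 4.47. The highest RBPJ fold of WWTR1 in MB157R iN1-ICD cells, 12.1, lay 183 kb from the TSS, where MB157R iEV cells had no call and MB157 iSOX2 and MB157 iEV cells had 4.49 and 5.61. The HA-SOX2 site printed above, 143 kb from the TSS, had a fold of 45.5 with RBPJ at 5.10 in MB157 iSOX2 cells 63 bp away, and no call in MB157R cells. HA-SOX2 and endogenous SOX2 thus had their highest WWTR1 folds at different places in the same intron. For the WWTR1 sites described at 143, 156, 160 and 183 kb the nearest protein-coding TSS was that of TM4SF4. They cannot be given to WWTR1 alone. Of 33 WWTR1 sites, 11 (33.3%) had both factors, 3 (9.09%) RBPJ only and 19 (57.6%) SOX2 only. The HA-SOX2 list alone gave 16 (48.5%). Over all sites of the genome these shares were 22.5%, 22.6%, 54.9% and 47.4%, so the last 2 were near those of all sites.

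TEAD1 (chr11:12674421-12944737, plus strand), a DNA-binding partner of YAP and TAZ, had the most sites, 40, and few at its start. The promoter had RBPJ folds of 4.14 in MB157R iEV and 3.92 in MB157 iSOX2 cells, on 13 and 18 fragments, and no SOX2. The intron 3 site printed above, 169 kb from the TSS, held the highest SOX2 fold of all 10 loci, 51.4 in MB157R iEV cells. The protein-coding TSS nearest to this site was that of RASSF10, so the site cannot be given to TEAD1 alone. In MB157R iN1-ICD cells SOX2 was still called there at 9.76 on 30 fragments (20.2 to 42.8), with the summit 1 bp away, and RBPJ at 4.33 on 12 fragments, 27 bp from that SOX2 summit. HA-SOX2 was called at 11.7 on 52 fragments, but 426 bp from the SOX2 summit of MB157R iEV cells. RBPJ had no call there in MB157R iEV cells or in MB157 cells.

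At 2 further TEAD1 sites SOX2 was high in both settings. In intron 2, 19.5 kb from the TSS, SOX2 had 26.2 on 110 fragments in MB157R iEV cells and HA-SOX2 22.7 on 92, with summits 2 bp apart, and RBPJ had 4.85 in MB157R iN1-ICD and 8.73 in MB157R iEV cells. In intron 3, 128 kb from the TSS, SOX2 had 25.1 in MB157R iEV cells and HA-SOX2 12.7, with RBPJ at 8.89 in MB157R iEV cells alone. The highest HA-SOX2 fold of TEAD1, 30.5 on 171 fragments at 10.0 kb, had no other call. The only TEAD1 site called in all 4 RBPJ lists lay 50.3 kb into the gene, with folds of 5.24 in MB157R iN1-ICD, 7.43 in MB157R iEV, 7.02 in MB157 iSOX2 and 9.36 in MB157 iEV cells. Of the 21 TEAD1 sites with RBPJ, 14 (66.7%) were called in MB157R only and 2 (9.52%) in MB157 only, beside 46.3% and 27.0% of the 76880 sites of the genome with RBPJ, where the MB157R lists are the longer ones.

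**Figure D3:**
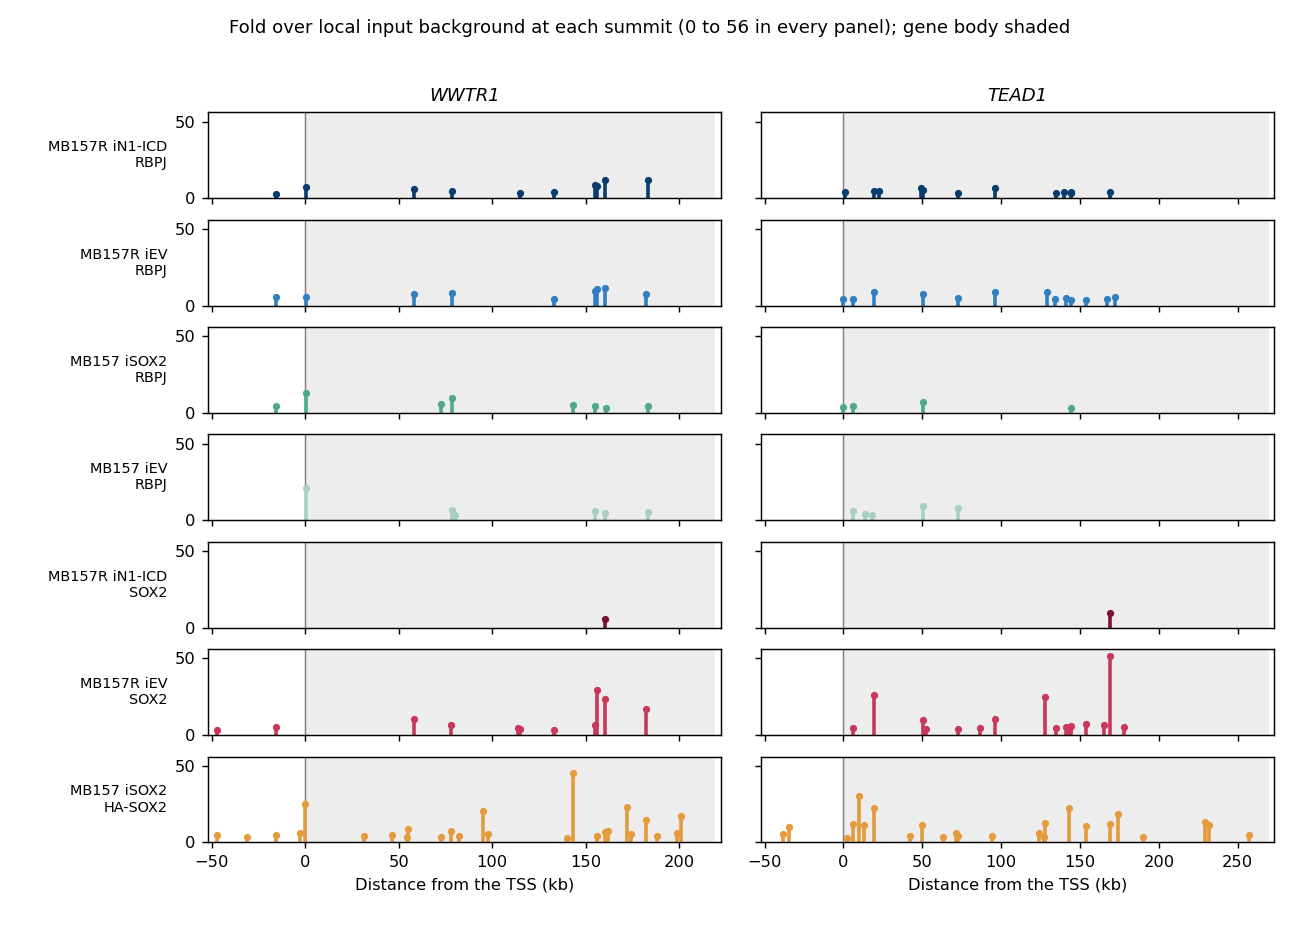
Fold over the local input background (y axis, 0 to 56) of each summit against its distance from the TSS in kb (x axis) at WWTR1 (left) and TEAD1 (right), 1 row per list, with the gene body shaded. The tall SOX2 lines of MB157R iEV cells (51.4 at TEAD1, 29.5 and 23.8 at WWTR1) stand beside 2 short ones in MB157R iN1-ICD cells (9.76 and 5.82).

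The other TEAD genes had fewer sites, and no site of theirs had a fold above 13.9. TEAD2 (chr19:49340595-49362457, minus strand) had a promoter site in 6 lists, with RBPJ folds of 5.81 in MB157R iN1-ICD, 6.38 in MB157R iEV, 7.91 in MB157 iSOX2 and 5.27 in MB157 iEV cells, SOX2 at 4.39 in MB157R iEV cells and HA-SOX2 at 5.24. Within this site the SOX2 summit lay 653 bp from the RBPJ summit of MB157R iEV cells and 884 bp from the HA-SOX2 summit. The gene DKKL1 overlaps this start, and the SOX2 summit lay 0.250 kb from the DKKL1 TSS, so the site cannot be given to TEAD2 alone. Its other RBPJ site of note, 29.5 kb upstream within KASH5, had folds of 8.50 in MB157R iEV, 5.60 in MB157 iSOX2 and 5.01 in MB157 iEV cells and no call in MB157R iN1-ICD cells.

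TEAD3 (chr6:35473597-35497079, minus strand) was called at its promoter in MB157R iEV cells alone, for RBPJ at 4.96 on 13 fragments. RBPJ was called in intron 2 in both lines but at different places. At 11.4 kb the folds were 7.99 in MB157R iN1-ICD and 6.16 in MB157R iEV cells, and at 10.7 kb they were 3.98 in MB157 iSOX2 and 6.64 in MB157 iEV cells, with SOX2 at 5.62 in MB157R iEV cells and HA-SOX2 at 4.44. The site shared by all 4 RBPJ lists, 47.6 kb downstream, had 4.84, 6.23, 8.33 and 7.06 and lay 2.87 kb from the TSS of FANCE. Its highest HA-SOX2 fold, 13.9, lay 48.7 kb upstream. TEAD3 was the most one-sided of the genes towards RBPJ, with 11 of 15 sites (73.3%) RBPJ only, beside 22.6% of all sites of the genome.

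TEAD4 (chr12:2959330-3040676, plus strand) had 2 RBPJ sites near its start, both in all 4 conditions. The promoter folds were 8.35 in MB157R iN1-ICD, 6.75 in MB157R iEV, 8.89 in MB157 iSOX2 and 6.78 in MB157 iEV cells, on 22, 23, 26 and 17 fragments with overlapping intervals (lowest bound 9.90, highest 38.1). SOX2 had no call at TEAD4 in MB157R cells, and the 4 HA-SOX2 sites, at most 9.25 in fold, were not near an RBPJ site.

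Of the target genes, CCN1 (chr1:85580761-85584589, plus strand) encodes a secreted matrix-associated protein, also called CYR61. Its promoter calls fell at separate sites. At 0.155 kb upstream, RBPJ had up to 4.51 in MB157R iN1-ICD, 7.35 in MB157R iEV and 8.01 in MB157 iEV cells. RBPJ had no call at that site in MB157 iSOX2 cells, where HA-SOX2 had 11.1 on 43 fragments. SOX2 had 4.32 on 17 fragments there in MB157R iEV cells. At 0.567 kb into the gene, RBPJ had 6.58 in MB157R iN1-ICD, 6.46 in MB157 iSOX2 and 6.60 in MB157 iEV cells. No SOX2 or HA-SOX2 summit was called at this inner site, nor RBPJ in MB157R iEV cells. In both MB157 RBPJ lists the promoter held the highest fold of the locus, whereas in MB157R cells higher values lay outside. At 26.6 kb downstream, RBPJ had 9.73, 10.0, 5.97 and 7.61 in the 4 conditions, SOX2 16.6 on 73 fragments in MB157R iEV cells and HA-SOX2 8.54 on 34. The SOX2 and HA-SOX2 summits were 5 bp apart and the RBPJ summit of MB157R iEV cells lay 44 bp from that of SOX2.

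A CCN1 site 8.70 kb upstream, within DDAH1, was called for RBPJ in MB157R cells only, at 3.92 in MB157R iN1-ICD and 7.15 in MB157R iEV cells. SOX2 had 12.9 there in MB157R iEV cells and HA-SOX2 21.5, its highest fold at CCN1. At 42.4 kb downstream RBPJ had 6.65 and 5.27 in MB157R iN1-ICD and MB157R iEV cells and SOX2 10.2 in MB157R iEV cells, with no call in MB157 cells. Of the 17 CCN1 sites with RBPJ, 8 (47.1%) were called in MB157R only, near the 46.3% of all sites with RBPJ, and 2 (11.8%) in MB157 only, beside 27.0%.

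CCN2 (chr6:131948176-131951372, minus strand), also called CTGF, encodes a related matrix protein and is a standard reporter of YAP and TAZ activity. At the promoter printed above, RBPJ had folds of 5.42 in MB157R iN1-ICD, 4.92 in MB157R iEV and 6.89 in MB157 iSOX2 cells, on 18, 19 and 25 fragments, and no call in MB157 iEV cells. SOX2 had 9.74 on 46 fragments (33.7 to 61.4) in MB157R iEV cells and HA-SOX2 15.1 on 61 (46.7 to 78.4). At this promoter both SOX2 folds were above the RBPJ folds, and the HA-SOX2 summit was 8 bp from the RBPJ summit of MB157 iSOX2 cells. All 5 summits had 2 or 3 TEAD motifs within 100 bp and no RBPJ, SOX or AP-1 motif.

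A weaker RBPJ site 0.935 kb into CCN2 was called in all 4 conditions (4.76, 3.65, 4.60 and 4.85), with HA-SOX2 at 3.74. One 3.51 kb upstream had RBPJ at 5.70 in MB157R iN1-ICD and 7.64 in MB157R iEV cells, with HA-SOX2 at 3.37 and no RBPJ call in MB157 cells. CCN2 had 8 sites in all, and none was RBPJ only, beside 22.6% of all sites of the genome.

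AMOTL2 (chr3:134355347-134375479, minus strand) encodes an angiomotin family protein that is both a target of YAP and a binding partner that restrains it. It had 23 sites, 21 of them with RBPJ. Of these 21, 6 (28.6%) were called in all 4 RBPJ lists, beside 11.4% of all sites with RBPJ. This was the highest number of any of the genes, but the share was higher at TEAD4 (100%) and YAP1 (40.0%) and the same at WWTR1 and AJUBA. At the promoter RBPJ had 7.68 in MB157R iN1-ICD, 6.98 in MB157 iSOX2 and 6.15 in MB157 iEV cells, and the 7.13 of MB157R iEV cells fell 1.26 kb downstream, near the MANE Select start. That last site also held SOX2 at 5.33 in MB157R iEV cells and HA-SOX2 at 11.8. Their summits lay 433 and 407 bp from the RBPJ summit of MB157R iEV cells. The upstream site printed above, 6.52 kb from the TSS, had 14.5 on 50 fragments in MB157R iN1-ICD, 13.4 on 67 in MB157R iEV, 14.5 on 57 in MB157 iSOX2 and 9.98 on 42 in MB157 iEV cells, with SOX2 at 4.97 in MB157R iEV cells and HA-SOX2 at 9.64. RBPJ was thus at similar folds in the 4 conditions, with fragment intervals that overlapped (lowest bound 30.3, highest 85.1).

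The downstream AMOTL2 site printed above, 41.9 kb from the TSS, differed by line. RBPJ had 3.19 on 15 fragments (8.40 to 24.7) in MB157R iN1-ICD and 6.90 on 20 (12.2 to 30.9) in MB157R iEV cells, against 30.3 on 106 (86.8 to 128) in MB157 iSOX2 and 19.0 on 67 (51.9 to 85.1) in MB157 iEV cells. HA-SOX2 had 17.0 on 65 fragments, 142 bp from the RBPJ summit of MB157 iSOX2 cells, and SOX2 had no call in MB157R cells. At this place the fragment intervals of both MB157 lists lay above those of both MB157R lists. MB157 iSOX2 also stood above MB157 iEV, but its list was deeper, with a genome background of 2.04 fragments against 1.60, and the intervals do not allow for depth. Another strong site, 48.4 kb downstream, had no such difference, with 19.0, 17.7, 14.9 and 14.9 in the 4 conditions, SOX2 at 4.39 in MB157R iEV cells and no HA-SOX2. In intron 9, 17.4 kb from the TSS, RBPJ had 7.98, 5.46, 13.0 and 11.9, SOX2 4.76 and HA-SOX2 15.6.

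**Figure D4:**
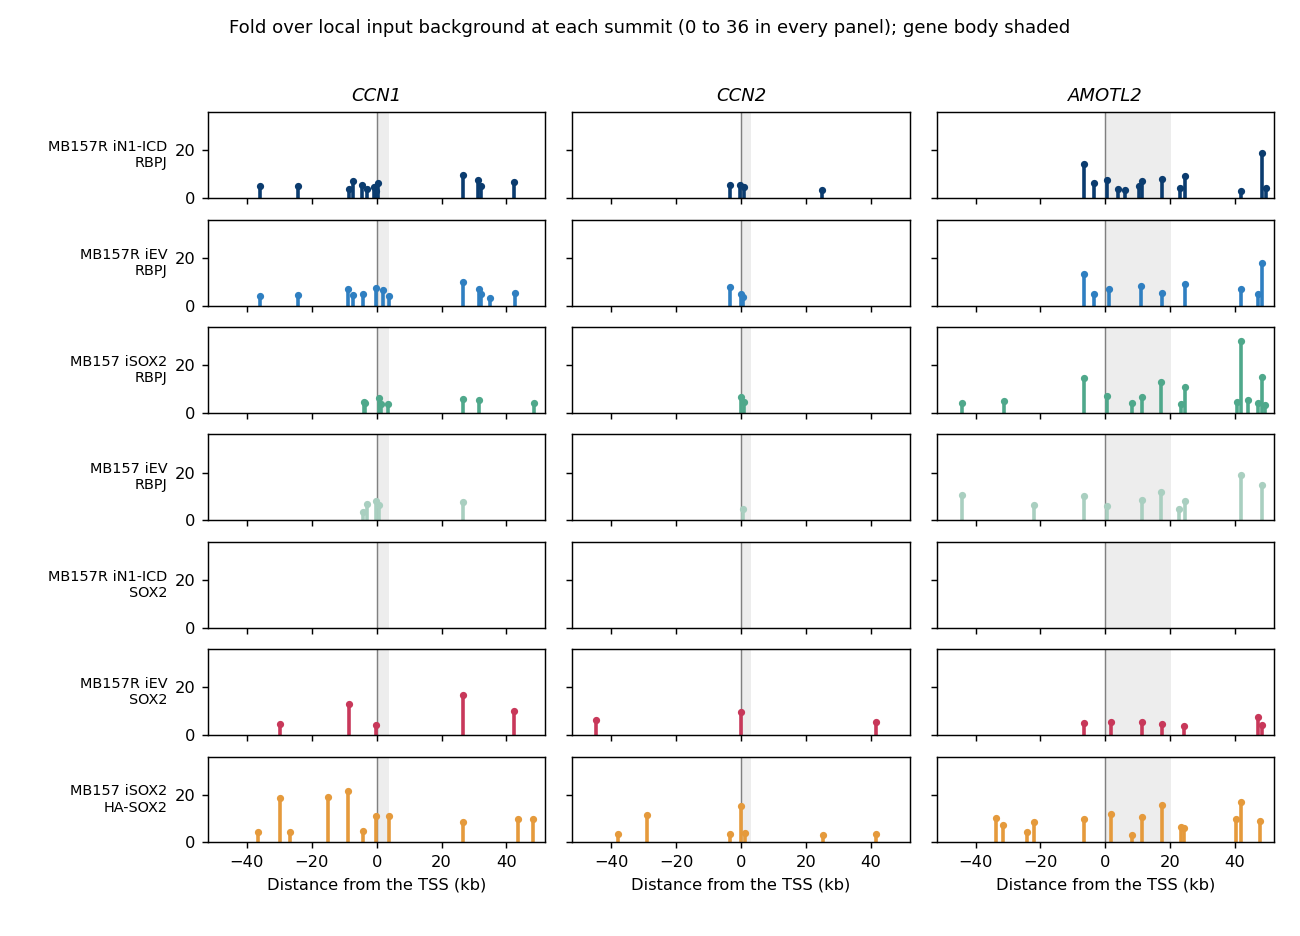
Fold over the local input background (y axis, 0 to 36) of each summit against its distance from the TSS in kb (x axis) at CCN1, CCN2 and AMOTL2, 1 row per list, with the gene body shaded. The line at 41.9 kb of AMOTL2 reaches 30.3 and 19.0 in the MB157 RBPJ rows and 3.19 and 6.90 in the MB157R RBPJ rows.

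AJUBA (chr14:22971177-22982551, minus strand) encodes a LIM protein that inhibits the LATS kinases and so favours YAP. Its promoter was a site of 6 lists, with RBPJ at 13.5 on 43 fragments in MB157R iN1-ICD, 17.0 on 68 in MB157R iEV, 10.9 on 32 in MB157 iSOX2 and 9.60 on 24 in MB157 iEV cells. SOX2 had 12.5 on 44 fragments in MB157R iEV cells and HA-SOX2 9.25 on 29, with summits 9 bp apart. No TEAD, RBPJ, SOX or AP-1 motif lay within 100 bp of these 6 summits. A site 24.5 kb upstream within C14orf93 had RBPJ at 9.82, 15.2, 11.7 and 7.68, SOX2 at 3.71 and HA-SOX2 at 6.17, and one 25.4 kb downstream had its SOX2 summit 0.0430 kb from the HAUS4 TSS, so that both may belong to neighbours.

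Co-localisation, meaning summits less than 500 bp apart, was then compared with that of all summits. In MB157R iEV cells, 36 of 68 RBPJ summits (52.9%, 40.4 to 65.2) lay near SOX2, beside 46.4% of all RBPJ summits. In the other direction 36 of 55 SOX2 summits (65.5%, 51.4 to 77.8) lay near RBPJ, beside 57.0%. The background share lay within the interval in both directions. The genes differed among themselves, since RBPJ was near SOX2 at 10 of 13 TEAD1 summits, 7 of 9 WWTR1 summits, 7 of 9 AMOTL2 summits and 4 of 5 YAP1 summits, but at 4 of 13 CCN1 summits and at none of the 3 TEAD2, 7 TEAD3 and 2 TEAD4 summits.

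In MB157 iSOX2 cells, 30 of 56 RBPJ summits (53.6%, 39.7 to 67.0) lay near HA-SOX2, beside 47.1% of all. Of the HA-SOX2 summits, 29 of 112 (25.9%, 18.1 to 35.0) lay near RBPJ, beside 15.0%. AMOTL2 gave 10 of its 15 RBPJ summits and TEAD3 1 of 5. The HA-SOX2 list was the longest, and with lists cut to equal length 31.8% of the RBPJ summits were near HA-SOX2. The share of all summits was not computed for the cut lists, so this value cannot be set against 47.1%.

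RBPJ summits of MB157R iN1-ICD and MB157 iEV cells were also compared with the SOX2 sites of MB157R iEV cells. Of the MB157R iN1-ICD summits, 30 of 70 (42.9%, 31.1 to 55.3) lay near such a site, beside 45.7% of all. Of the MB157 iEV summits, 15 of 40 (37.5%, 22.7 to 54.2) did, beside 22.6%. The MB157R iN1-ICD share thus had the share of all summits inside its interval, although SOX2 itself was called at only 2 summits in those cells.

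Of the 55 SOX2 summits of MB157R iEV cells, MB157R iN1-ICD cells shared 2 (3.64%, 0.443 to 12.5), beside 0.796% of all. These were the WWTR1 and TEAD1 intron sites. In MB157 iSOX2 cells HA-SOX2 was called at 32 of the 55 (58.2%, 44.1 to 71.3), beside 34.7%, and 32 of the 112 HA-SOX2 summits (28.6%, 20.4 to 37.9) were called in MB157R iEV cells, beside 12.2%. With lists of equal length the HA-SOX2 list had 48 summits in the 10 loci and held 36.4% of the 55. No share of all summits was computed for equal lists, so this value cannot be set against 34.7%.

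RBPJ sites were next compared between the conditions of each line. In MB157R cells, 48 of 70 summits of iN1-ICD cells (68.6%, 56.4 to 79.1) were called in iEV cells, beside 70.7% of all, and 48 of 68 summits of iEV cells (70.6%, 58.3 to 81.0) in iN1-ICD cells, beside 56.3%. In MB157 cells, 30 of 56 summits of iSOX2 cells (53.6%, 39.7 to 67.0) were called in iEV cells, beside 50.0%, and 30 of 40 summits of iEV cells (75.0%, 58.8 to 87.3) in iSOX2 cells, beside 68.5%. Among the 40 RBPJ summits of MB157 iEV cells, 10 thus had no call in MB157 iSOX2 cells.

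RBPJ sites were also compared between the lines. Of 68 RBPJ summits of MB157R iEV cells, 27 (39.7%, 28.0 to 52.3) were called in MB157 iEV cells, beside 26.2% of all, and 27 of the 40 MB157 iEV summits (67.5%, 50.9 to 81.4) in MB157R iEV cells, beside 48.6%. Of the 70 MB157R iN1-ICD summits, 30 (42.9%, 31.1 to 55.3) were called in MB157 iEV cells, beside 30.0%, and of the 56 MB157 iSOX2 summits, 34 (60.7%, 46.8 to 73.5) in MB157R iEV cells, beside 46.3%. In these 4 shares the background lay below the interval, as it did above for the HA-SOX2 summits near RBPJ, both SOX2 and HA-SOX2 comparisons, the MB157R iEV summits called in MB157R iN1-ICD cells and, narrowly, the MB157 iEV summits near SOX2. Sites of 1 locus are not independent and the genes were chosen with results known, so this is a description of these loci. The lists of MB157 iEV and MB157R iEV cells enter several of these shares.

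**Figure D5:**
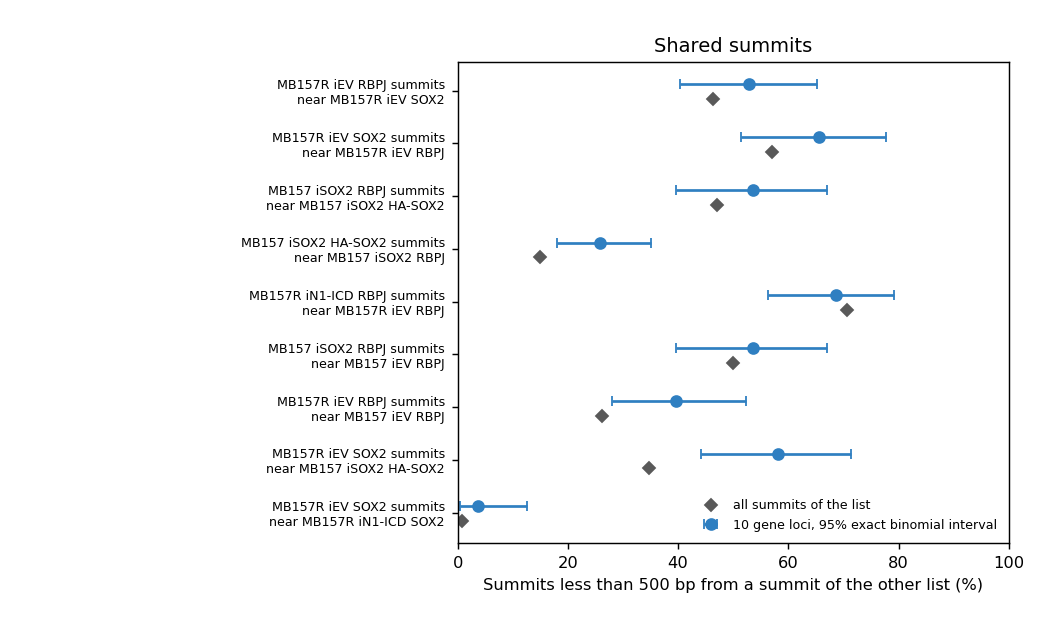
Percentage of the summits of one list that lie less than 500 bp from a summit of another list (x axis) for 9 pairs of lists, in the loci of the 10 genes (circles, with exact binomial intervals of 95%) and over all summits of the list (diamonds). The lowest share is that of MB157R iEV SOX2 summits called in MB157R iN1-ICD cells (3.64%), and that of MB157 iSOX2 HA-SOX2 summits near RBPJ (25.9%) has its diamond, at 15.0%, below the interval.

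Of the 180 sites, 62 (34.4%) were called for both factors in some list, beside 22.5% of all sites, 46 (25.6%) for RBPJ only, beside 22.6%, and 72 (40.0%) for SOX2 only, beside 54.9%. The HA-SOX2 list alone gave 60 (33.3%), beside 47.4%. RBPJ was called at 108 of the sites, and in all 4 conditions at 22 of these (20.4%), beside 11.4% of all sites with RBPJ. It was called in MB157R only at 44 (40.7%), beside 46.3%, and in MB157 only at 21 (19.4%), beside 27.0%. Both MB157R lists and no MB157 list held 18 (16.7%), beside 17.3%, and both MB157 lists and no MB157R list held 2 (1.85%), beside 7.43%. The median fold of the members' summits was 5.30, 6.09, 4.79 and 6.62 in the RBPJ lists of MB157R iN1-ICD, MB157R iEV, MB157 iSOX2 and MB157 iEV cells, beside 4.90, 5.23, 4.44 and 4.95 over all summits. That of SOX2 in MB157R iEV cells was 5.43 beside 5.32, and that of HA-SOX2 7.19 beside 5.99.

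The TEAD motif was found within 100 bp of 22 of 70 RBPJ summits in MB157R iN1-ICD cells (31.4%, 20.9 to 43.6), beside 16.6% of all RBPJ summits of that list. In MB157R iEV cells it was 22.1% beside 15.1%, in MB157 iSOX2 cells 19.6% beside 13.9%, and in MB157 iEV cells 25.0% beside 14.6%. It was above the share of all summits in each RBPJ list, outside the interval only in MB157R iN1-ICD cells, and several summits of 1 place repeat the same letters. Within 50 bp that share was 17.1% (9.18 to 28.0) beside 9.33%, which lay inside the interval. Around SOX2 summits it was 18.2% beside 19.0% in MB157R iEV cells and 17.0% beside 15.0% for HA-SOX2, and in windows of the same length around the TSS of all protein-coding genes it was 7.74%. An overlapping RBPJ and TEAD motif was found at 1 of the 70 RBPJ summits of MB157R iN1-ICD cells (1.43%), near the 0.997% of all, at 1 of the 55 SOX2 summits of MB157R iEV cells (1.82%), beside 0.421%, and at no member summit of the other lists.

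The RBPJ motif lay at 17.1%, 14.7%, 12.5% and 17.5% of the RBPJ summits in MB157R iN1-ICD, MB157R iEV, MB157 iSOX2 and MB157 iEV cells, beside 14.3%, 11.5%, 14.6% and 16.3% of all and 3.69% of TSS windows. The SOX motif lay at 54.5% of SOX2 summits in MB157R iEV cells, beside 50.6%, and at 58.9% of HA-SOX2 summits, beside 65.3%, with 21.5% of TSS windows. The AP-1 motif lay at 27.3% of SOX2 summits in MB157R iEV cells (16.1 to 41.0), beside 39.9%, and at 14.3%, 16.2%, 8.93% and 15.0% of the RBPJ summits, beside 21.5%, 23.1%, 6.38% and 6.37%. Over all RBPJ summits AP-1 was thus more frequent in the MB157R lists than in the MB157 lists, whereas at the 10 loci the 4 shares had overlapping intervals.

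The rest of the pathway was described at promoters from 3 lists of genes. Over all protein-coding genes RBPJ had a promoter summit at 43.0%, 56.1%, 50.4% and 38.0% in MB157R iN1-ICD, MB157R iEV, MB157 iSOX2 and MB157 iEV cells, SOX2 at 21.8% in MB157R iEV cells and HA-SOX2 at 34.0%. Of 25 Hippo core and upstream regulators, RBPJ had a promoter summit at 16 (64.0%) in MB157R iN1-ICD, 19 (76.0%) in MB157R iEV, 15 (60.0%) in MB157 iSOX2 and 12 (48.0%) in MB157 iEV cells. SOX2 had one at 6 (24.0%) in MB157R iEV cells, near the 21.8% of all genes, and HA-SOX2 at 12 (48.0%), while SOX2 in MB157R iN1-ICD cells and the HA control had none. In MB157R iEV cells the highest RBPJ folds were 18.3 at the polarity gene PATJ, 13.3 at FRMD6, 9.84 at CRB3, 9.49 at the kinase gene TAOK2 and 9.05 at the kinase gene MAP4K4. The highest SOX2 folds were 8.82 at NF2, which encodes the tumour suppressor merlin, 7.96 at AMOTL1, 6.86 at FRMD6, 6.54 at MAP4K4 and 4.47 at SAV1, the adaptor of the MST kinases. No list had a promoter summit at STK3, LATS2, RASSF1 or LIMD1.

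Of 7 genes of TEAD cofactors and of transcription factors that bind YAP (RUNX2 and TP73 among them), 4 (57.1%) had an RBPJ promoter summit in each of MB157R iN1-ICD, MB157R iEV and MB157 iSOX2 cells, beside 43.0%, 56.1% and 50.4% of all genes, and 3 (42.9%) had one in MB157 iEV cells, beside 38.0%. SOX2 in MB157R iEV cells and HA-SOX2 had one at 4 each (57.1%), beside 21.8% and 34.0%. The VGLL proteins compete with or replace YAP on TEAD. In MB157R iEV cells RBPJ had 16.7 at VGLL3, 6.36 at TP73, 5.22 at VGLL4 and 4.13 at VGLL2, and SOX2 had 10.6 at VGLL4, 8.62 at RUNX2, 4.66 at VGLL3 and 4.53 at VGLL2. VGLL1 had none in any list.

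Of 22 other YAP and TAZ target genes, RBPJ had a promoter summit at 16 (72.7%), 19 (86.4%), 17 (77.3%) and 14 (63.6%) in MB157R iN1-ICD, MB157R iEV, MB157 iSOX2 and MB157 iEV cells. SOX2 had one at 11 (50.0%) in MB157R iEV cells and HA-SOX2 at 14 (63.6%). These shares stand beside the 43.0%, 56.1%, 50.4%, 38.0%, 21.8% and 34.0% of all genes. In MB157R iEV cells RBPJ was highest at ARHGEF17 (12.7), THBS1, which encodes the matrix protein thrombospondin 1 (11.0), DOCK5 (9.92), FJX1 (9.30) and F3, which encodes tissue factor (9.0). SOX2 was highest at GADD45A (11.3), ANKRD1 (7.38), TGFB2 (5.92), NT5E (5.07) and NUAK2 (4.47). LATS2 and PTPN14 stood in both the regulator and the target list.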

How the data were processed

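The libraries and groups are those described above. Per the methods of the study and the submitters' processing notes, reads were trimmed of adaptors and mapped by the authors to hg38 using BWA, and MACS2 called narrow peaks on pooled replicates with inputs as controls. The deposited lists give other columns with start, end and summit position in bp, the authors' ratio (fold enrichment at the summit), and the deposited −log10 p and −log10 q of each peak, besides a score that was not used. Fold, −log10 p and −log10 q were used as deposited. Fragments and background at a summit were recovered from the fold and the −log10 p (tolerance 1e-04), which succeeded for 94.8% to 100% of the peaks tried in each list, and have exact Poisson 95% intervals. Shares have exact binomial 95% intervals. The recovery was tested on simulated data.

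Genes, starts and introns came from GENCODE 44, and introns were numbered on the MANE Select transcript. A site was described in full if it was the promoter site (within 1 kb) or the site of highest fold of a factor at its gene, and other sites were named to compare conditions, chosen after their values were seen. Of the pathway genes, those named had the 5 highest folds in MB157R iEV cells per factor, or no promoter summit in any list. The members and lists were chosen with earlier results of these data known. No test was made, because each condition is 1 pooled list.

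Alternatives were windows of 20 and 100 kb, promoters of 5 kb or of any transcript start, distances of 100 and 1000 bp, overlap by 1 bp, −log10 q of at least 5, lists of equal length and a motif window of 50 bp. The start of the MANE Select transcript was added after the data had been seen. Tools were samtools 1.23.1, pysam 0.24.0 and Python 3.11.15 with pandas 2.3.3, numpy 2.4.6, matplotlib 3.10.9 and scipy 1.17.1.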

Additional observations from a re-analysis of the deposited data

How the results depend on the processing

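Of 127 values computed under alternatives for 35 results, 101 were labelled the same as the reported value and 26 moved. A count was labelled the same within a factor of 1.5, and a share inside the interval of the reported share. This rule is wide. It took 98 RBPJ summits within 100 kb and 48 in equal lists as the same as 68 in MB157R iEV cells. Except for the motif shares, the values under alternatives were computed for the 10 loci only. The shares of all genes or summits given above therefore do not apply to them. At a −log10 q of at least 5, the loci held 45 RBPJ summits in MB157R iN1-ICD cells and 36 in MB157 iSOX2 cells, and SOX2 in MB157R iEV cells had 3 promoters. Within 20 kb of the TSS, 34 RBPJ summits remained counted in MB157 iSOX2 cells. With lists of equal length, HA-SOX2 had 48 summits, 31.8% of the MB157 iSOX2 RBPJ summits lay near it, and it was called at 36.4% of the MB157R iEV SOX2 summits. With any transcript start, SOX2 promoters were 1 in MB157R iN1-ICD and 8 in MB157R iEV cells, and HA-SOX2 promoters were 8. Within 5 kb, HA-SOX2 promoters were 9. With the MANE Select start, chosen after seeing the data, promoter counts were 8, 10, 9 and 8 for RBPJ in MB157R iN1-ICD, MB157R iEV, MB157 iSOX2 and MB157 iEV cells, 0 and 7 for SOX2 in MB157R iN1-ICD and MB157R iEV cells, and 6 for HA-SOX2.

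At 100 bp, RBPJ near SOX2 was 30.9% and SOX2 near RBPJ 38.2% in MB157R iEV cells. RBPJ near HA-SOX2 was 19.6% and HA-SOX2 near RBPJ 9.82% in MB157 iSOX2 cells. RBPJ of MB157R iN1-ICD cells called in MB157R iEV cells was 52.9%, and RBPJ of MB157 iSOX2 cells called in MB157 iEV cells 35.7%. RBPJ near HA-SOX2 was 69.6% at 1000 bp and 67.9% by overlap of regions, and overlap gave 84.3% for RBPJ of MB157R iN1-ICD cells in MB157R iEV cells. With a motif window of 50 bp, 6 of 12 motif shares moved. A distance of 1000 bp can only raise and one of 100 bp can only lower a share, and a stricter q or a shorter list holds fewer peaks. For the overlap and start settings the cause was not tested.

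No paired analysis was possible because peaks had been called on pooled libraries, and for the same reason leaving out replicates was not run. Summits rest on few fragments, which limits the calling of weak sites in every list, and the HA control had a background of 0.524 fragments.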
